A study of Mus musculus with 21 samples.

Results

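Polyadenylated RNA was measured in left ventricle (LV) of 21 male mice, and the 41 genes described here encode enzymes that place or remove methyl and acetyl groups on histones: 16 methyltransferases and close relatives, 12 demethylases, 6 acetyltransferases and 7 deacetylases. The 41 genes were chosen by name, with earlier results of these data in view, so their counts and medians are given as a description, beside the same quantity for all genes. All 41 were found among the 55450 rows of the count table, and all 41 had enough counts to be among the 17309 genes tested. The mice were of the 129S6/SvEv strain. R403Q mice carried 1 mutant and 1 wild-type copy of Myh6, the gene of the alpha-myosin heavy chain (genotype Myh6+/R404Q, called R403Q after the human mutation), and wild-type (WT) mice were their littermates. This is a model of hypertrophic cardiomyopathy (HCM), in which heart muscle thickens because of a sarcomere mutation. Control-diet groups (CD) received a purified diet, and empagliflozin groups (EMPA) received the same diet with 0.15 mg per g of empagliflozin, an inhibitor of the kidney sodium-glucose cotransporter SGLT2. The groups were WT-CD (n = 5), R403Q-CD (n = 7), WT-EMPA (n = 5) and R403Q-EMPA (n = 4). The labels give 16 weeks of diet from an age of 9 to 10 weeks, whereas the study's methods place the RNA samples at 12 weeks of age after 2 weeks of treatment, and the exposure behind these values is therefore uncertain. The mice came from 4 control-diet cages, each with both genotypes, and 3 empagliflozin cages, so cage and diet cannot be told apart. Of the empagliflozin cages, 1 held only WT mice, WT-EMPA replicates 1, 2 and 3.

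Methyl and acetyl groups on the tails of histones H3 and H4 mark chromatin for use or for silencing. Methylation of lysine 4 of H3 (H3K4) marks promoters and enhancers, H3K36 methylation marks transcribed gene bodies, H3K9 and H3K27 methylation mark repressed regions, and acetylation opens chromatin for transcription until deacetylases remove it. In heart muscle, class IIa deacetylases are known for binding the MEF2 transcription factors and holding back hypertrophic gene programmes, while the acetyltransferase p300 and the demethylase Kdm4a are known for promoting hypertrophy in experimental models. These roles describe proteins, many of them regulated by phosphorylation and location, and the values below are messenger RNA.

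The libraries held 23491535 to 43539684 counts, and 0 of the 41 genes was absent from any mouse, the lowest single value being 74 counts for Hdac1. Heart tissue markers fitted the label: the 6 cardiomyocyte genes summed to 85968 ± 3650 CPM (counts scaled to the size of each library, SD) in WT-CD, 74618 ± 11750 in R403Q-CD, 83588 ± 5435 in WT-EMPA and 75553 ± 4615 in R403Q-EMPA, lower in R403Q on both diets, and no cardiomyocyte, fibroblast or macrophage marker was at 0 in any mouse. Gene by gene, 4 of the 6 were lower and 2 higher in R403Q-CD than in WT-CD. In R403Q-EMPA against WT-EMPA 3 were lower and 3 higher. Myh6, the mutated gene, had a median of 40617 CPM and log2 differences of -0.39 and -0.38 in these 2 comparisons. The library of R403Q-CD replicate 2 stood apart, with 10996 CPM of the natriuretic peptide gene Nppa against 883 to 3826 in the other R403Q-CD mice, the lowest cardiomyocyte sum, 51155 CPM, and the highest sums of that group for 3 atrial markers, 608 CPM against 3.22 to 157, and for 5 fibroblast markers, 2987 CPM against 1341 to 2181. Counts, medians and the values of several genes are also given without it. The fibroblast list was higher in R403Q-CD than in WT-CD hearts for 5 of 5 genes, with a sum of 1802 ± 602 against 1206 ± 241 CPM (SD), and the macrophage list for 4 of 4 genes, with 175 ± 25.6 against 128 ± 12.7 CPM. In R403Q-EMPA against WT-EMPA the fibroblast list was also higher for 5 of 5 genes, with 1667 ± 95.3 against 1297 ± 227 CPM. The endothelial list was higher for 5 of 5 genes in both genotype comparisons. Its sums were 700 ± 32.7 against 642 ± 46.4 CPM on control diet and 734 ± 81.9 against 666 ± 40.6 CPM on empagliflozin. In EMPA hearts the sum of 14 circadian clock genes was lower, 887 ± 153 CPM in WT-EMPA and 822 ± 87.5 in R403Q-EMPA against 1097 ± 89.0 in WT-CD and 998 ± 96.7 in R403Q-CD. Within that list Arntl, a gene active opposite to the Per genes in the daily cycle, had a log2 difference of 1.61 in R403Q and 1.78 in WT hearts, and Clock (0.26 and 0.45) and Npas2 (0.56 and 0.23) were also on the higher side. Collection times are not given in the sources used here. The 4 erythroid genes were higher on EMPA for 4 of 4 in both genotypes, with sums of 1814 ± 581 CPM in R403Q-EMPA and 1496 ± 328 in WT-EMPA against 1189 ± 266 in R403Q-CD and 993 ± 212 in WT-CD. The 3 atrial genes were lower for 3 of 3 in R403Q-EMPA than in R403Q-CD, with sums of 12.7 ± 15.0 against 124 ± 220 CPM, and for 3 of 3 in WT-EMPA than in WT-CD, with 25.9 ± 32.9 against 69.1 ± 109 CPM. The 5 smooth muscle and pericyte genes were lower on EMPA for 5 of 5 in both genotypes, with 949 ± 179 against 1119 ± 136 CPM in R403Q and 912 ± 122 against 1037 ± 109 CPM in WT hearts. The part of these shifts in the results below was not tested. In whole tissue, fewer cells of a type and less RNA per cell cannot be told apart.

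The promoters of the enzymes had a higher median content of C and G than those of all genes with a RefSeq promoter. RefSeq promoters of the GRCm38.p6 build, running from 250 bases before to 50 bases after the gene start, were matched by symbol for 28 of the 41 genes and not matched for 13. Their median GC content was 66.3%, against 53.3% over 27025 genes, and they held a median of 30.5 CG dinucleotides against 8. Where a gene had several promoters, the highest GC content and CG count were taken, and a motif in any of them was counted. The 27025 genes were not limited to the genes tested here, and a comparison with tested genes alone was not made. The GC box GGGCGG, the core of an Sp1 site, was present on either strand in 19 of 28 (67.9%) against 38.2% of the 27025 genes, and the NRF1 motif in 6 of 28 (21.4%) against 5.19%. The ETS motif CCGGAAG was found in 3 (10.7%, all genes 9.93%), the CCAAT box in 10 (35.7%, all 41.1%) and the E-box CACGTG in 4 (14.3%, all 8.09%). A TATA box (TATAAA) was found in 1, that of Hdac9 (3.57%, all 15.7%). The cAMP response element TGACGTCA (all 2.03%) and the D-box TTANGTAA (all 2.72%) were found in 0. These counts describe letters in a 300-base window and say nothing about binding. Promoters of 4 genes whose values by mouse are described below follow, 5′ to 3′ on the gene's strand, with matches to the searched motifs in capitals.
Kdm4a, chr4:118179994-118180293 (minus strand): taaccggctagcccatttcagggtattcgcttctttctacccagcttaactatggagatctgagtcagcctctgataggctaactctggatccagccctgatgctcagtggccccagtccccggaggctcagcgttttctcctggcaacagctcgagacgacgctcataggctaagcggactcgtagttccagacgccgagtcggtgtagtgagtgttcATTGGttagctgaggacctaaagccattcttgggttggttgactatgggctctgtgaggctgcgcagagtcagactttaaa
Hdac5, chr11:102230123-102230422 (minus strand): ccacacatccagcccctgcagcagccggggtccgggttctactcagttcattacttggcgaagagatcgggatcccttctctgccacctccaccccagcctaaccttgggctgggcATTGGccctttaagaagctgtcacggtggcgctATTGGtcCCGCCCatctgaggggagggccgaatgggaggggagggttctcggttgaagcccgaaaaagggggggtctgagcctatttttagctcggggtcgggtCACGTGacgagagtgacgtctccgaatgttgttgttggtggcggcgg
Ep300, chr15:81585964-81586263 (plus strand): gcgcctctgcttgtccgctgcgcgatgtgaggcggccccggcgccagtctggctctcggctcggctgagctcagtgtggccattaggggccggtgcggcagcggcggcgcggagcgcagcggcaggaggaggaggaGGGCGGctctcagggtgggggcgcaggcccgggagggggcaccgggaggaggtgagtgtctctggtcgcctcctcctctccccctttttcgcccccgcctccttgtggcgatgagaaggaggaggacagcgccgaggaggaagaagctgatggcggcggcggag
Kmt2d, chr15:98871156-98871455 (minus strand): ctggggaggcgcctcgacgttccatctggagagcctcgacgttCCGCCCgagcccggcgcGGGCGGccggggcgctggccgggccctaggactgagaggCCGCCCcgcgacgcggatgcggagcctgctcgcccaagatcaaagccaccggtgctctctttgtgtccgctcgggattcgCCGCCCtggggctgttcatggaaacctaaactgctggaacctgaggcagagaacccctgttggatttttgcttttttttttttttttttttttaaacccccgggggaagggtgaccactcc
Kdm4a held 1 CCAAT box read on the other strand, Hdac5 held 2 CCAAT boxes, 1 GC box and 1 E-box, Ep300 held 1 GC box and Kmt2d held 4.

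Levels were compared between genes in TPM, counts divided by the merged exon length of each gene and then scaled to a common total per mouse. The highest level was that of Kat2b (ENSMUSG00000000708), which encodes the acetyltransferase PCAF, at 86.7 ± 7.92 TPM (SD, n = 21), above Hdac2 in 21 of 21 mice. Next came the class I deacetylases Hdac2 at 45.6 ± 2.08 TPM and Hdac3 at 40.7 ± 2.91 TPM, the class IIa deacetylase Hdac5 at 37.6 ± 5.67 TPM, the H3K9 methyltransferase Ehmt2 at 35.2 ± 3.78 TPM and the H3K27 methyltransferase Ezh1 at 33.2 ± 4.75 TPM. Hdac2 was above Hdac3 in 19 mice and Hdac3 above Hdac5 in 14, so Hdac2 was set apart from its neighbour more clearly than Hdac3 was. Further down, most neighbours in the order differed by less than the SD over mice. The lowest levels were those of Setd1a at 5.05 ± 0.793, Kdm5b at 3.97 ± 0.433, Hdac1 at 3.36 ± 0.485, Kdm2b at 3.23 ± 0.412 and Ezh2 at 2.46 ± 0.328 TPM. Among paralogs, Ezh1 had a higher level than Ezh2, and Hdac5 exceeded Hdac4 at 8.75 ± 2.13 and Hdac9 at 7.78 ± 1.16 TPM. With the longest annotated transcript in place of merged exons, Kat2b and Hdac2 kept ranks 1 and 2, whereas Setd5 moved from rank 32 to 14 and Kdm3b from 26 to 17.

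**Figure D1:**
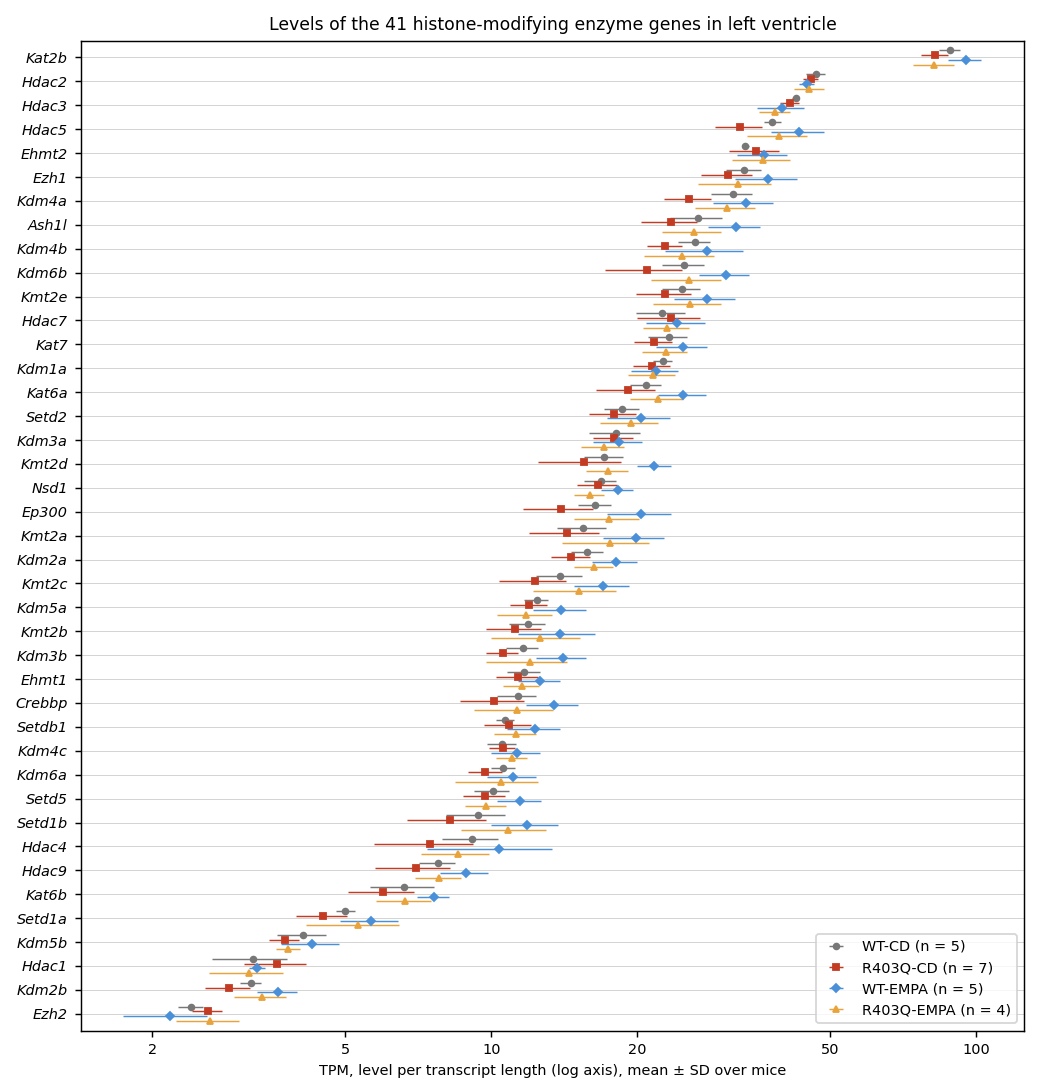
Level of each of the 41 genes in TPM (x axis, log scale) in WT-CD, R403Q-CD, WT-EMPA and R403Q-EMPA hearts, as mean ± SD over mice, with genes ordered by their mean over 21 mice. Kat2b at 86.7 TPM stands above the rest and Ezh2 at 2.46 TPM is lowest, and for most genes the 4 groups overlap.

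Hdac1 values carry an uncertainty from a copy. Of the 60-base windows of the Hdac1 transcripts, 32.8% also occurred in another gene, chiefly in Gm10093, a processed pseudogene at chr17:78491582-78493025 (GRCm38). Over 1444 aligned bases of the Hdac1 coding sequence the pseudogene differed at 9 and was identical at 99.4%, whereas Hdac2 shared 77.0% over 1272 aligned bases. Of the 1347 stretches of 100 bases in the coding sequence, 905 (67.2%) were the same letters in both. Uniquely aligned reads were counted, and the deposited table gave Gm10093 a mean of 489 counts in WT-CD hearts against 131 for Hdac1. The stretch from base 363 to 482 of the coding sequence is shown because it holds 6 of the 9 differences, which are in capitals.
Hdac1: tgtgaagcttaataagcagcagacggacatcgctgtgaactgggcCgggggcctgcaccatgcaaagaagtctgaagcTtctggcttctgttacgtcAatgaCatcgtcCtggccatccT
Gm10093: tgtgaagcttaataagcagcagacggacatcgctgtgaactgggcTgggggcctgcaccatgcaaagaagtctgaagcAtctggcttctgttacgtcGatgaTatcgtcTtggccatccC
Reads lying wholly in shared letters cannot be told apart, so the Hdac1 level may be too low by an unknown amount and its order against Hdac2 is uncertain. Setd1a shared 51.1% of its windows with the read-through annotation Gm49388, which had 0 counts. This annotation overlaps Setd1a on the same strand, and what this takes from the Setd1a counts was not tested, so its low level is uncertain. Setdb1, Kdm2b and Kat2b shared 7.01%, 5.62% and 4.98% with other genes. The count table used strand, so well-expressed genes overlapping on the opposite strand, such as Dap3 at Ash1l and Luzp1 at Kdm1a, were counted apart.

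The first comparison asked how untreated R403Q hearts differed from untreated WT hearts. For 36 of the 41 genes the level was lower in R403Q-CD than in WT-CD, with a median log2 difference of -0.12 against 0.01 over all 17309 genes, of which 47.5% were lower. No gene of the 41 passed an adjusted p of 0.05 in edgeR's quasi-likelihood test with Benjamini-Hochberg adjustment over all genes, which 1.44% of all genes passed. DESeq2 called 1, Kdm4a, and limma called 0. At an unadjusted p under 0.05, 8 of the 41 were lower and 0 higher. By that rule 9.15% of all genes were lower, and 2039 of all 17309 were higher. The 5 genes on the higher side were Hdac1, Ezh2, Ehmt2, Hdac7 and Setdb1, with log2 differences of 0.01 to 0.16. In 0 of the 41 was every R403Q-CD mouse below every WT-CD mouse (1.01% of all genes). With library size alone as the scaling, the split was 27 lower and 14 higher and the median -0.05, while the median over all genes rose to 0.08. The count of lower genes at an unadjusted p under 0.05 was 2 with that scaling, 5 on 3 groups, 6 on 2 groups and 12 with cage in the fit. All-gene calls at the adjusted threshold were 352, 98, 28 and 1128 in the same order, against 250 as reported. The share of all genes at an unadjusted p under 0.05 in these fits is not given.

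Demethylases held 2 of the 3 smallest p-values, with 12 of 12 lower, a median of -0.13 and 4 at an unadjusted p under 0.05. With library size alone 9 of 12 were lower, with a median of -0.07 and 1 at that p. Kdm4a (ENSMUSG00000033326), which removes methyl groups from H3K9 and H3K36, stood at 72.1, 58.6, 64.1, 66.9 and 57.2 CPM in the 5 WT-CD hearts and at a lowest of 41.2, a median of 50.5 and a highest of 61.4 CPM in the 7 R403Q-CD hearts. All 7 R403Q-CD mice were below the WT-CD mean and 5 were below the lowest WT-CD mouse, and the groups overlapped. The difference was -0.31 (SE 0.0899, edgeR adjusted p = 0.0729). It passed the threshold in DESeq2 (adjusted p = 0.0330, a rule that 6.11% of 16097 genes passed) and with cage in the edgeR fit (-0.33, adjusted p = 0.0259, passed by 6.52% of genes). Without R403Q-CD replicate 3 it also passed in edgeR (-0.35, adjusted p = 0.0287), where 1045 of 17349 genes passed. Over the other alternatives its adjusted p ran up to 0.153, and over all mice left out in turn up to 0.204. Its paralog Kdm4b was at 48.1, 43.7, 44.9, 48.1 and 40.4 CPM in WT-CD and at 32.8, 39.1 and 44.6 CPM (lowest, median, highest) in R403Q-CD. Of the R403Q-CD mice, 6 of 7 lay below the lowest WT-CD mouse, and the difference was -0.21 (SE 0.0872, edgeR adjusted p = 0.174). The other paralog, Kdm4c, had a log2 difference of -0.00. Kdm6b, an H3K27 demethylase, had a difference of -0.25 (SE 0.117) and Kdm2b, an H3K36 demethylase, one of -0.16 (SE 0.0735).

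Among deacetylases the class IIa genes were lower for 3 of 4, with a median of -0.20. Hdac5 (ENSMUSG00000008855) stood at 121, 109, 123, 117 and 114 CPM in WT-CD and at 78.5, 103 and 111 CPM (lowest, median, highest) in R403Q-CD. Only the highest R403Q-CD mouse reached into the WT-CD range. The difference was -0.23 (SE 0.0780, edgeR adjusted p = 0.107), and it passed the threshold with cage in the fit (-0.28, adjusted p = 0.0431, passed by 6.52% of genes) and in no other alternative, where adjusted p ran from 0.0533 to 0.223. Hdac4 had a larger but more variable difference of -0.29 (SE 0.168), Hdac9 one of -0.16 (SE 0.0970) and Hdac7 one of 0.04 (SE 0.0827). The class I genes, nuclear enzymes of large corepressor complexes, lay within -0.05 and 0.16, with a median of -0.04, or 0.02 with library size alone, where all genes had a median of 0.08. Hdac2, the most abundant of them, was at 68.3, 68.0, 78.9, 73.9 and 77.7 CPM in WT-CD and at 66, 70.3 and 81.5 CPM in R403Q-CD. These ranges overlapped almost fully. Hdac1 was at 2.71, 3.87, 4.27, 4.73 and 3.94 CPM in WT-CD and at 3.58, 4.41 and 5.15 CPM in R403Q-CD, a difference of 0.16 (SE 0.129, edgeR adjusted p = 0.506).

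The acetyltransferases were lower for 6 of 6 with a median of -0.14. Ep300, which encodes p300, was at 82.7, 85.3, 79.0, 86.6 and 75.5 CPM in WT-CD and at 53.0, 67.6 and 86.1 CPM (lowest, median, highest) in R403Q-CD. The WT-CD values were close together and the R403Q-CD values spread from well below to the top of them, with 5 of 7 below the lowest WT-CD mouse. The difference was -0.24 (SE 0.0998, edgeR adjusted p = 0.177). Its partner paralog Crebbp had a difference of -0.17 (SE 0.0959). Kat2b was at 153, 147, 142, 160 and 150 CPM in WT-CD and at 130, 139 and 153 CPM in R403Q-CD, a difference of -0.11 (SE 0.0518, edgeR adjusted p = 0.226).

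The 7 H3K4 methyltransferase genes were all lower, with differences of -0.09 to -0.19 and a median of -0.15, and 0 of them reached an unadjusted p of 0.05. Kmt2e, a relative without clear methyltransferase activity and the most abundant of the 7 per length, was at 89.6, 97.2, 89.8, 92.6 and 81.6 CPM in WT-CD and at 68.3, 85.8 and 92.3 CPM in R403Q-CD. The groups overlapped. On empagliflozin Kmt2e was at 113, 99.7, 88.5, 86.8 and 101 CPM in WT and at 85.2, 84.3, 94.3 and 108 CPM in R403Q hearts. The 9 genes acting on H3K36, H3K9 and H3K27 lay closer to 0, with 6 of 9 lower and a median of -0.05, or 0.01 with library size alone, again below the 0.08 of all genes. After the correction for transcript length described below, 4 of these 9 were lower and the median was 0.01. Ash1l, which methylates H3K36, had the difference farthest from 0 in this group, -0.19 (SE 0.0875, edgeR adjusted p = 0.221). Ehmt2 was at 64.4, 59.8, 64.9, 67.5 and 64.8 CPM in WT-CD and at 60.2, 67.6 and 75.2 CPM in R403Q-CD, and its difference stayed within 0.04 and 0.07 in the 4 comparisons of 2 groups. Its EMPA values were 73.5, 69.2, 61.6, 61.9 and 70.2 CPM in WT and 62.3, 64.9, 76.0 and 73.3 CPM in R403Q hearts.

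The number of the 41 genes at an unadjusted p under 0.05 in this comparison depended on single mice. It was 17 without R403Q-CD replicate 1 and 14 without replicate 3, but 4 without replicate 2, 3 without replicate 4, 5 without replicate 5 and 4 without replicate 7. Without WT-CD replicate 1, 2 or 4 it was 3, 5 and 3. All-gene calls at the adjusted threshold moved as well. They were 250 as reported, 424 and 1045 without R403Q-CD replicates 1 and 3, and 243, 227, 87 and 289 without replicates 2, 4, 5 and 7. The share of all genes at an unadjusted p under 0.05 is not given for fits with a mouse left out, here or below. The swings are therefore not shown to be particular to the 41 genes. Without R403Q-CD replicate 2, the library that stood apart, 35 of 41 were lower and the median was -0.10, with Kdm4a at -0.26 (edgeR adjusted p = 0.116), Hdac5 at -0.19 (edgeR adjusted p = 0.167) and Kdm4b at -0.18 (edgeR adjusted p = 0.296). Over all mice left out in turn the median ran from -0.15 to -0.09.

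The second comparison asked how empagliflozin-fed R403Q hearts differed from untreated R403Q hearts. It shares the R403Q-CD mice with the first comparison, so the values of both are set side by side and no overlap between them is read. For 33 of the 41 genes the level was higher in R403Q-EMPA, with a median log2 difference of 0.11 against -0.00 over all genes, of which 49.2% were higher. No gene of the 41 passed the adjusted threshold, which 0.0116% of all genes passed, and the smallest adjusted p was 0.198. At an unadjusted p under 0.05, 12 were higher and 0 lower, against 7.06% of all genes that were higher by this rule and 1100 of all 17309 that were lower. DESeq2 and limma likewise gave 0 of 41 at the adjusted threshold and 12 at an unadjusted p under 0.05, and edgeR on these 2 groups gave 7. In 0 of the 41 was every R403Q-EMPA mouse above every R403Q-CD mouse (0.953% of all genes). The 8 genes on the lower side were Hdac1, Hdac2, Hdac3, Hdac7, Kat2b, Nsd1, Kdm3a and Kdm5a, with differences of -0.01 to -0.19.

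Hdac5 had the smallest p of the 41 in this comparison. It stood at 113, 106, 128 and 132 CPM in the 4 R403Q-EMPA hearts, against the R403Q-CD range of 78.5 to 111 CPM. All 4 treated mice were above the R403Q-CD mean and 3 were above its highest mouse. The difference was 0.27 (SE 0.0833, edgeR adjusted p = 0.198). The other class IIa genes had differences of 0.18 (Hdac4, SE 0.180), 0.16 (Hdac9, SE 0.104) and -0.02 (Hdac7, SE 0.0886), whereas all 3 class I genes were on the lower side with a median of -0.11. Hdac2 was at 80.0, 74.8, 65.6 and 62.5 CPM in R403Q-EMPA, within the R403Q-CD range but for the lowest 2 mice. Hdac1 was at 3.65, 4.71, 3.72 and 3.14 CPM.

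Ep300 was at 81.6, 78.9, 85.4 and 101 CPM in R403Q-EMPA. All 4 mice were above the R403Q-CD mean of 69.4 ± 11.5 CPM and 1 was above its highest mouse. The difference was 0.32 (SE 0.106, edgeR adjusted p = 0.220). Of the 6 acetyltransferases, 5 were higher with a median of 0.15 over the 6, and Kat2b was the exception, with 130, 146, 135 and 144 CPM in R403Q-EMPA and a difference of -0.01 (SE 0.0556).

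The H3K4 methyltransferases were higher for 7 of 7 genes, with a median of 0.23 and 4 at an unadjusted p under 0.05. Setd1b, a catalytic subunit of a complex that trimethylates H3K4 at promoters, was at 37.4, 42.5, 47.1 and 53.8 CPM in R403Q-EMPA and at 25.4, 32.2 and 45.2 CPM (lowest, median, highest) in R403Q-CD. All 4 treated mice were above the R403Q-CD mean and 2 above its highest mouse. The difference was 0.38 (SE 0.134, edgeR adjusted p = 0.242), the largest of the 41 genes in these comparisons of 2 groups in the edgeR fit. In WT hearts Setd1b was at 40.8, 40.8, 38.8, 46.1 and 31.4 CPM on control diet and at 57.3, 47.0, 46.2, 40.6 and 49.1 CPM on empagliflozin. Kmt2c, an enhancer methyltransferase with the longest exons of the 41, was at 95.1, 90.7, 115 and 126 CPM in R403Q-EMPA and at 70.3, 86.2 and 108 CPM in R403Q-CD, a difference of 0.29 (SE 0.110, edgeR adjusted p = 0.261). The genes acting on H3K36, H3K9 and H3K27 were higher for 8 of 9, but their median was 0.05 and 0 of them reached an unadjusted p of 0.05.

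Demethylases were higher for 10 of 12, with a median of 0.10 and 5 at an unadjusted p under 0.05. Kdm4a was at 56.8, 59.99, 58.6 and 70.5 CPM in R403Q-EMPA, all above the R403Q-CD mean of 51.6 ± 6.74 CPM and 1 above its highest mouse. The difference was 0.25 (SE 0.0962, edgeR adjusted p = 0.261). Kdm4b was at 37.0, 38.8, 43.6 and 48.2 CPM, which overlapped the R403Q-CD range, a difference of 0.11 (SE 0.0936).

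The median of this comparison depended most on R403Q-EMPA replicate 4, in which 35 of the 41 genes were above their mean over all mice. Without it the median was 0.05 and 2 of the 41 genes were at an unadjusted p under 0.05, and without R403Q-EMPA replicate 3 the latter count was 5. It was 8 without R403Q-CD replicate 2, 4 or 5. Without R403Q-CD replicate 2 the median was 0.08, with Hdac5 at 0.21 (edgeR adjusted p = 0.255), Ep300 at 0.26 (edgeR adjusted p = 0.302) and Setd1b at 0.32 (edgeR adjusted p = 0.324).

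**Figure D2:**
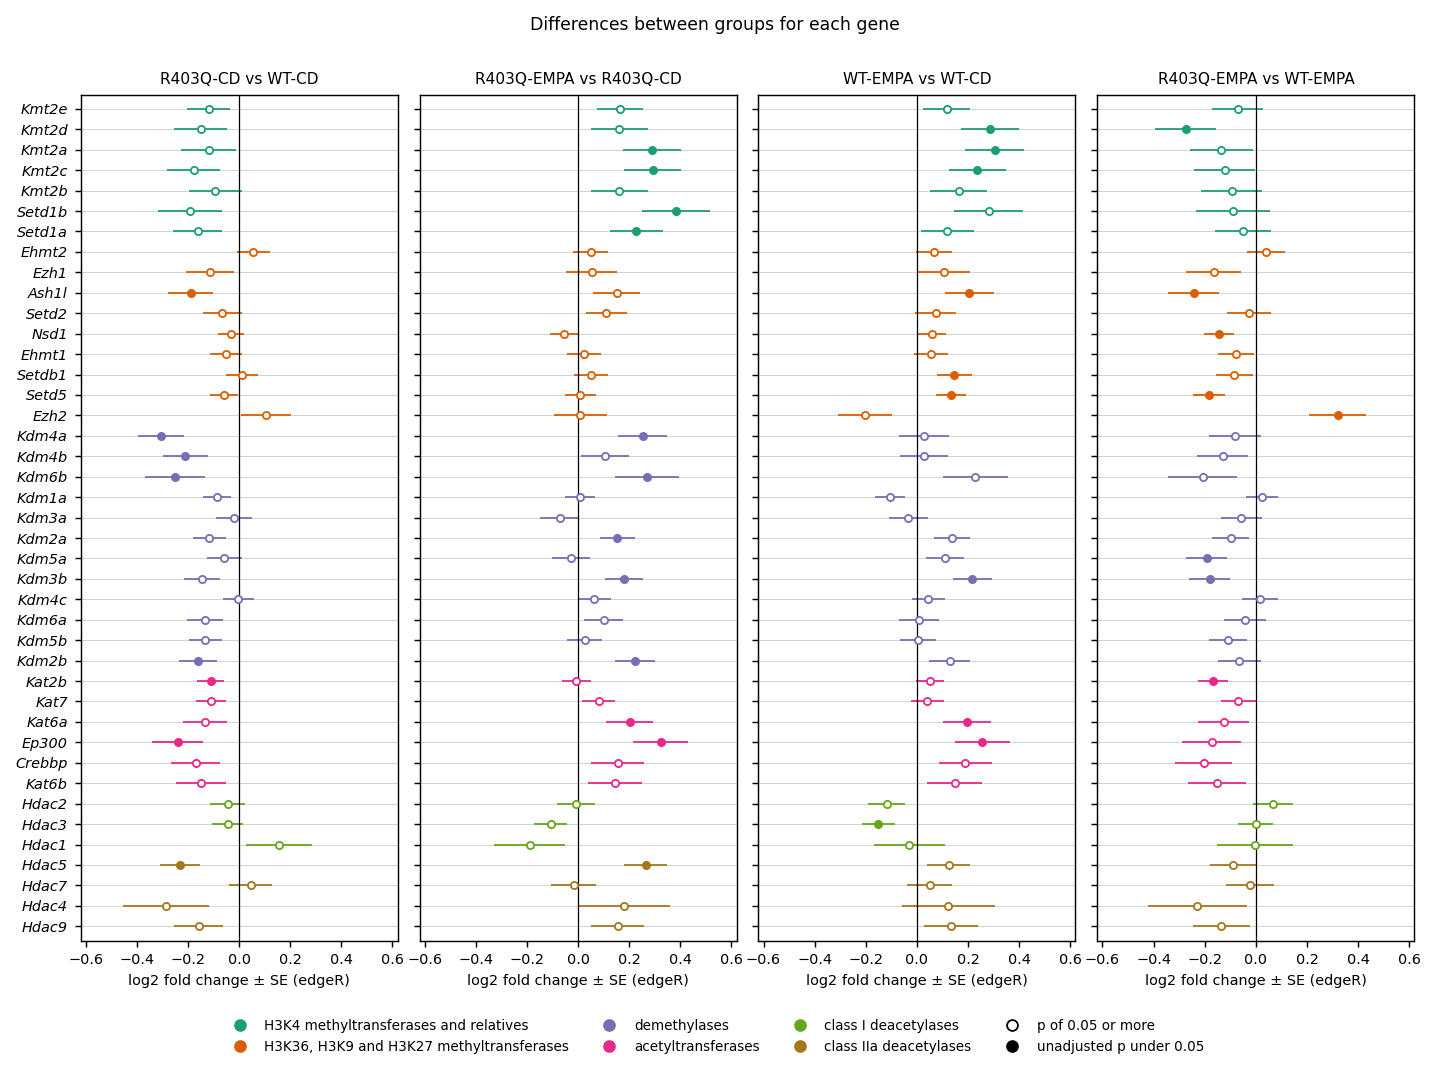
Log2 fold change ± SE of each of the 41 genes (y axis, grouped by role) in 4 comparisons of 2 groups, from the edgeR fit. Filled points have an unadjusted p under 0.05, and the points lie mostly below 0 in R403Q-CD vs WT-CD (36 of 41 lower) and above 0 in R403Q-EMPA vs R403Q-CD (33 of 41 higher).

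WT-EMPA was next compared with WT-CD, the same diet change without the mutation. The level was higher for 35 of the 41 genes, with a median of 0.12 against -0.00 over all genes, of which 49.1% were higher. No gene passed the adjusted threshold in edgeR (0.0289% of all genes passed, smallest adjusted p of the 41 0.288). At an unadjusted p under 0.05 there were 9 higher genes, against 5.94% of all genes, and 1 lower gene, Hdac3, against 879 of all 17309. DESeq2 and limma gave 0 of 41 at the adjusted threshold. In 3 of the 41 every WT-EMPA mouse was above every WT-CD mouse, which held for 1.87% of all genes.

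Those 3 were Kdm3b, Kmt2a and Kmt2d. Kdm3b, an H3K9 demethylase, was at 61.5, 57.4, 55.8, 58.9 and 52.5 CPM in WT-CD and at 75.2, 65.6, 62.2, 62 and 67.4 CPM in WT-EMPA. The groups lay next to each other without overlap, and the difference was 0.22 (SE 0.0753, edgeR adjusted p = 0.288). Kmt2a, an H3K4 methyltransferase known for maintaining Hox gene expression, was at 95, 95.9, 88.1, 96.0 and 75.8 CPM in WT-CD and at 127, 116, 99.4, 99.8 and 115 CPM in WT-EMPA. Its difference was 0.30 (SE 0.115, edgeR adjusted p = 0.327). Kmt2d, which places H3K4 monomethylation at enhancers, was at 126, 112, 121, 134 and 104 CPM in WT-CD and at 156, 147, 144, 138 and 145 CPM in WT-EMPA. Its difference was 0.29 (SE 0.112, edgeR adjusted p = 0.348). With these 2, the 7 H3K4 genes were all higher, with a median of 0.24. In R403Q hearts Kdm3b ran from 48.6 to 56.0 CPM on control diet and was at 51.2, 52.3, 62.2 and 69.3 CPM on empagliflozin. Kmt2a ran from 63.6 to 104 CPM in R403Q-CD and was at 85.9, 90.6, 109 and 120 CPM in R403Q-EMPA.

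Acetyltransferases were higher in WT-EMPA for 6 of 6, with a median of 0.17. Ep300 was at 107, 103, 82.3, 89.7 and 106 CPM in WT-EMPA, 5 of 5 above the WT-CD mean, a difference of 0.26 (SE 0.108, edgeR adjusted p = 0.389). Class I deacetylases were lower for 3 of 3 with a median of -0.12. Hdac3, the catalytic partner of the NCoR corepressors, had a difference of -0.15 (SE 0.0647, edgeR adjusted p = 0.397), and Hdac2 was at 63.0, 64.1, 70.4, 74.3 and 66 CPM in WT-EMPA, overlapping WT-CD. Class IIa genes were higher for 4 of 4, with Hdac5 at 144, 131, 116, 118 and 128 CPM in WT-EMPA and a difference of 0.12 (SE 0.0845). The genes acting on H3K36, H3K9 and H3K27 were higher for 8 of 9, with a median of 0.07 and 3 at an unadjusted p under 0.05. The 12 demethylases had a median of 0.04 and ran from -0.11 (Kdm1a) to 0.23 (Kdm6b, SE 0.127). Kdm4a was at 77.1, 65.7, 61.5, 58.9 and 61.9 CPM in WT-EMPA, overlapping WT-CD, a difference of 0.03 (SE 0.0974).

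The median was 0.06 without WT-EMPA replicate 1 and ran up to 0.14 over the other mice left out. The count of higher genes at an unadjusted p under 0.05 was 1 without WT-CD replicate 5, 4 without replicate 3 and 5 without replicate 2. It was 3 without WT-EMPA replicate 1 or 5, 4 without replicate 2 and 6 without R403Q-EMPA replicate 3.

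R403Q-EMPA was then compared with WT-EMPA, which asks for the genotype difference on the empagliflozin diet. It shares the WT-EMPA mice with the comparison before it, so the separation of Kmt2d in both is not read as separate results. The level was lower in R403Q-EMPA for 36 of the 41 genes (48.3% of all genes were lower), with a median of -0.09 against 0.01 over all genes. No gene passed the adjusted threshold in edgeR (0.0578% of all genes passed), DESeq2 or limma. At an unadjusted p under 0.05, 7 were lower, against 6.56% of all genes, and 1, Ezh2, was higher, against 1409 of all 17309 genes. With library size alone the split was 30 lower and 11 higher, with a median of -0.04, beside 0.06 over all genes in that fit, and 1 gene in each direction at an unadjusted p under 0.05. In 3 of the 41 every R403Q-EMPA mouse was below every WT-EMPA mouse (3.41% of all genes).

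These 3 were Kat2b, Nsd1 and Kmt2d. Kat2b was at 169, 147, 149, 159 and 156 CPM in WT-EMPA and at 130, 146, 135 and 144 CPM in R403Q-EMPA. The difference was -0.17 (SE 0.0597, edgeR adjusted p = 0.208). Nsd1, an H3K36 methyltransferase, was at 114, 108, 104, 105 and 106 CPM in WT-EMPA and at 96.8, 99.8, 91.2 and 100 CPM in R403Q-EMPA, a difference of -0.14 (SE 0.0585, edgeR adjusted p = 0.254). On control diet Nsd1 was at 111, 104, 95.8, 104 and 99.9 CPM in WT and at 89.3, 102 and 109 CPM in R403Q, and there the genotypes overlapped. Kmt2d was at 117, 115, 120 and 131 CPM in R403Q-EMPA, all below the lowest WT-EMPA mouse at 138 CPM, a difference of -0.27 (SE 0.120, edgeR adjusted p = 0.288). Its R403Q-CD values ran from 84.7 to 144 CPM.

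Setd5, a relative of the H3K36 methyltransferases, had the smallest p. It was at 75.7, 73.3, 69.5, 63.2 and 71.9 CPM in WT-EMPA and at 59.6, 61.3, 61.2 and 67.3 CPM in R403Q-EMPA. The groups overlapped in 1 mouse each, and the difference was -0.18 (SE 0.0635, edgeR adjusted p = 0.199). On control diet it was at 68.4, 67.1, 64.7, 63.5 and 59.1 CPM in WT and at 54.3, 62.5 and 65.1 CPM (lowest, median, highest) in R403Q. Ezh2, the H3K27 methyltransferase of dividing cells, went the other way. It was at 5.68, 5.71, 4.32, 4.95 and 3.73 CPM in WT-EMPA and at 5.40, 5.76, 6.91 and 6.28 CPM in R403Q-EMPA, a difference of 0.32 (SE 0.112, edgeR adjusted p = 0.201) on a low level. On control diet Ezh2 was at 5.56, 5.68, 6.02, 5.52 and 5.31 CPM in WT and at 5.71, 6.0 and 6.49 CPM in R403Q. The macrophage list was higher in R403Q-EMPA for 4 of 4 genes, with 182 ± 23.3 against 130 ± 19.0 CPM, and its part in the Ezh2 values was not tested.

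Leaving out mice moved this median from -0.16 without R403Q-EMPA replicate 4 to -0.04 without WT-EMPA replicate 1. The count of lower genes at an unadjusted p under 0.05 was 2 without WT-EMPA replicate 1, 3, 4 and 11 without R403Q-EMPA replicate 1, 3 and 4. With cage in the fit the median was -0.05 and the count 1. That fit compared genotypes within cages, and WT-EMPA replicates 1, 2 and 3 shared a cage without R403Q mice. Its genotype difference on empagliflozin therefore rests on the other WT-EMPA mice alone.

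The difference between the diet effect in R403Q and in WT hearts was tested as an interaction. Of the 41 genes, 0 passed the adjusted threshold (0% of all genes passed) and 0 reached an unadjusted p under 0.05, which 3.28% of all genes did. DESeq2 and limma also gave 0 and 0, whereas the fit with cage and the fit without WT-EMPA replicate 1 each gave 0 at the adjusted threshold and 1 at an unadjusted p under 0.05. In the cage fit the genotype difference on empagliflozin rests on fewer WT-EMPA mice, as given above. The median was 0.02, or 0.05 with cage, and it ran from -0.03 to 0.05 over mice left out in turn. Kdm4a had the smallest p, with an interaction of 0.22 (SE 0.137, edgeR adjusted p = 0.999) that was 0.35 with cage in the fit (edgeR adjusted p = 0.921), followed by Nsd1 at -0.11 (SE 0.0776) and Setd5 at -0.12 (SE 0.0841). The diet differences of Kdm4a, 0.25 in R403Q and 0.03 in WT hearts, were therefore not shown to differ.

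Levels per length were also summed by role. The H3K4 genes summed to 97.4 ± 8.79 TPM in WT-CD, 89.0 ± 13.1 in R403Q-CD, 118 ± 15.4 in WT-EMPA and 105 ± 18.2 in R403Q-EMPA (SD). The demethylases summed to 192 ± 12.7, 173 ± 12.1, 208 ± 25.1 and 188 ± 24.2 TPM in the same order of groups, and the acetyltransferases to 167 ± 9.23, 153 ± 13.3, 186 ± 17.2 and 163 ± 17.3 TPM. The H3K36, H3K9 and H3K27 genes summed to 164 ± 10.2, 158 ± 14.0, 183 ± 21.5 and 165 ± 20.2 TPM. The class IIa deacetylases summed to 77.4 ± 4.83, 70.4 ± 6.10, 86.6 ± 11.2 and 78.6 ± 9.23 TPM. In each of these sums R403Q-CD was lowest and WT-EMPA highest, with ranges that overlapped between groups. The class I deacetylases alone were highest in WT-CD, with 92.4 ± 2.27, 90.5 ± 2.66, 87.8 ± 3.88 and 86.9 ± 2.32 TPM. Hdac1, Hdac3 and Hdac2 also have the shortest merged exons of the 41 genes, with 3445, 4054 and 4474 bases. Their role and their length cannot be told apart here.

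**Figure D3:**
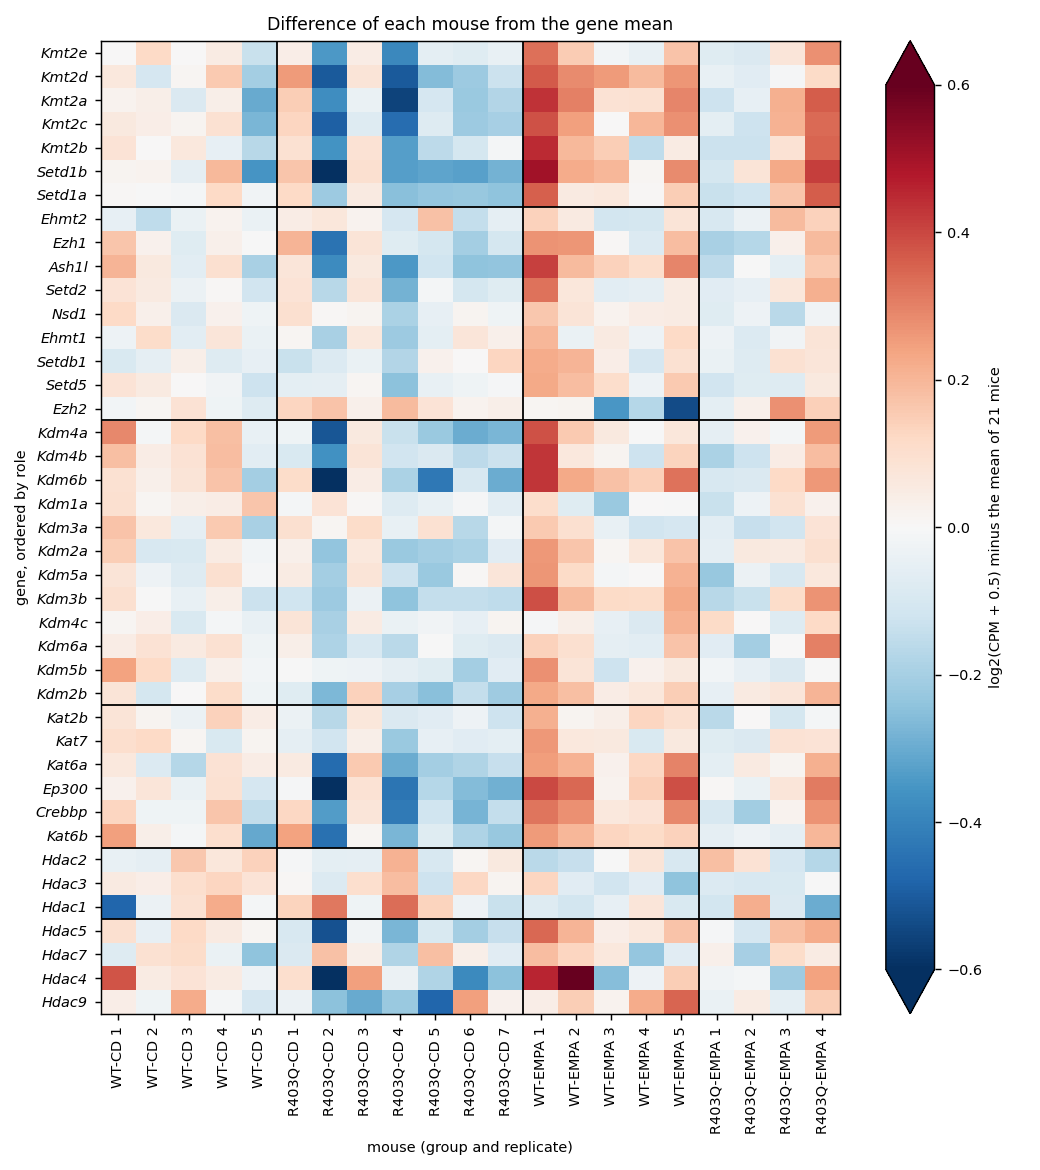
Difference of each mouse (columns, by group and replicate) from the mean of 21 mice for each of the 41 genes (rows, by role), on the log2(CPM + 0.5) scale, with colours that saturate at 0.6. Some columns are mostly of 1 colour, as in WT-EMPA replicate 1 (38 of 41 genes above their mean) and R403Q-CD replicate 4 (4 of 41).

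The partner genes of these enzymes were read from fixed lists of 117 genes, of which 115 were tested. Their counts come from the reported edgeR fit alone. They were not repeated with library size alone or after the correction for transcript length. In R403Q-CD against WT-CD 81 were lower and 34 higher, with a median of -0.05 and 17 lower genes at an unadjusted p under 0.05, beside 47.5% of all genes lower and 9.15% lower at that p. The H4K20 methyltransferase Kmt5a fell by 0.38 on the log2 scale (SE 0.0951, edgeR adjusted p = 0.0468), the 1 gene of the 115 to pass, a share no higher than the 1.44% of all genes that passed. Of the subunits of H3K4 methyltransferase (COMPASS) complexes 7 of 11 were lower, of PRC2 subunits 6 of 9, of other methyltransferases 11 of 16 and of other demethylases 8 of 12. Of other acetyltransferases 7 of 8 were lower, of other deacetylases 9 of 11, of deacetylase corepressor complexes 16 of 24 with 5 at an unadjusted p under 0.05, of acetyltransferase complex subunits 11 of 16, of acetyl-lysine readers 4 of 5 and of MEF2 factors 2 of 3. Mef2a had the smallest p after Kmt5a, with a difference of -0.23 (SE 0.0638, edgeR adjusted p = 0.0629).

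In R403Q-EMPA against R403Q-CD 72 of the 115 were higher, with a median of 0.05, 20 higher and 6 lower at an unadjusted p under 0.05 and 0 past the adjusted threshold. Of all genes 49.2% were higher and 7.06% were higher at that p. Higher genes numbered 6 of 11 COMPASS subunits, 4 of 9 PRC2 subunits, 8 of 16 other methyltransferases, 8 of 12 other demethylases, 4 of 8 other acetyltransferases and 5 of 11 other deacetylases. They numbered 19 of 24 corepressor genes, 12 of 16 acetyltransferase complex subunits, 4 of 5 readers and 2 of 3 MEF2 factors. The smallest adjusted p was 0.155 for Sap130, a subunit of the Sin3 corepressor, at 0.27 (SE 0.0737). Mef2d was at 0.33 (SE 0.0930, edgeR adjusted p = 0.162). In WT-EMPA against WT-CD 66 were higher, with a median of 0.02 and 0 past the threshold, and 13 were higher and 4 lower at an unadjusted p under 0.05, where 49.1% of all genes were higher and 5.94% were higher at that p. In R403Q-EMPA against WT-EMPA 78 were lower with a median of -0.05, beside 48.3% of all genes. There Jade2, a scaffold subunit of the Kat7 acetyltransferase complex, fell by 0.49 on the log2 scale (SE 0.0920, edgeR adjusted p = 0.0495, a threshold that 0.0578% of all genes passed), and Kat7 itself had a difference of -0.07 (SE 0.0688). In the interaction 0 of the 115 passed and 2 reached an unadjusted p under 0.05 (3.28% of all genes).

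Transcript length set the 41 genes apart from most others. Their merged exons had a median of 9180 bases against 3798 over the tested genes, from 3445 in Hdac1 to 20291 in Kmt2c, and 40 of 41 were above the median of tested genes. When tested genes were divided by length into 5 classes of about equal size, the longest class, from 6950 bases, held 27 of the 41 (65.9%), and the 2 shortest classes held 0. Their coding sequences had a median of 3969 bases against 1398. Among the 41, log2 differences ran with length: Spearman's rho was -0.38 in R403Q-CD against WT-CD, 0.41 in R403Q-EMPA against R403Q-CD, 0.67 in WT-EMPA against WT-CD and -0.66 in R403Q-EMPA against WT-EMPA. Over 17293 tested genes with a length rho was -0.12, 0.05, 0.20 and -0.23. These describe genes of the same libraries, which are not independent replicates.

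Genes of all kinds differed by length in the same direction. In R403Q-EMPA against WT-EMPA the median log2 difference of all genes went from 0.12 in the shortest class to -0.07 in the longest, where the 27 enzymes had a median of -0.13. In WT-EMPA against WT-CD it went from -0.06 to 0.05, with 0.13 for the 27 enzymes. In R403Q-CD against WT-CD it went from 0.06 to -0.04, with -0.13 for the enzymes, and in R403Q-EMPA against R403Q-CD it was -0.00 in the shortest and 0.02 in the longest class, with 0.16 for the enzymes. When the length trend of each mouse was taken out as an offset, the medians of the longest class of all genes were within -0.02 and 0.00 in the 4 comparisons. The 27 enzymes then had medians of -0.09, 0.11, 0.06 and -0.04 in R403Q-CD against WT-CD, R403Q-EMPA against R403Q-CD, WT-EMPA against WT-CD and R403Q-EMPA against WT-EMPA.

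Over all 41 genes the medians after this correction were -0.09, 0.09, 0.05 and -0.03, with 32 lower, 28 higher, 32 higher and 30 lower genes. At an unadjusted p under 0.05, 6 were lower and 0 higher in R403Q-CD against WT-CD (9.75% and 11.8% of all genes in this fit). In R403Q-EMPA against R403Q-CD 11 were higher and 1 lower (6.51% and 7.34% of all genes). In WT-EMPA against WT-CD 2 were higher and 3 lower (5.31% and 4.88%), and in R403Q-EMPA against WT-EMPA 1 was lower and 1 higher (6.64% and 6.48%). By role, the medians in WT-EMPA against WT-CD went from 0.24 to 0.12 for the H3K4 genes (3 to 1 at an unadjusted p under 0.05), from 0.17 to 0.08 for the acetyltransferases (2 to 0), from 0.12 to 0.03 for the class IIa deacetylases and from 0.04 to 0.02 for the demethylases, while the class I median stayed at -0.12. That of the H3K36, H3K9 and H3K27 genes went from 0.07 to 0.02, with 3 higher genes at that p before and 0 higher and 1 lower after. In R403Q-CD against WT-CD the demethylases went from 12 to 10 of 12 lower, with a median of -0.09 and 2 at that p. In R403Q-EMPA against WT-EMPA the demethylase median went from -0.09 to -0.01 and that of the acetyltransferases from -0.16 to -0.07. Differences of long genes shrank in the 2 comparisons with WT-EMPA. Kmt2d went from 0.29 to 0.17 against WT-CD, Kmt2a from 0.30 to 0.20 and Kdm3b from 0.22 to 0.13. In R403Q-EMPA against WT-EMPA Setd5 went from -0.18 to -0.06 and Nsd1 from -0.14 to -0.03. Kat2b, with 4867 bases of exon, stayed at -0.17, and Kdm4a, with 5782 bases, went from -0.31 to -0.30 in R403Q-CD against WT-CD. What the length trend stands for in these libraries was not tested.

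**Figure D4:**
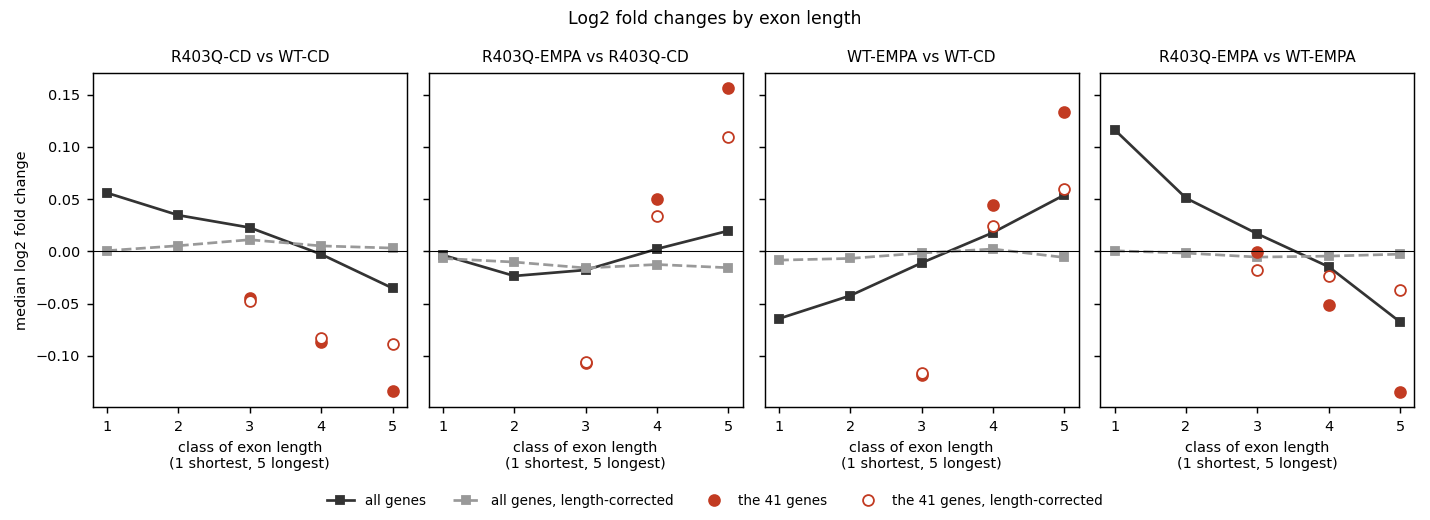
Median log2 fold change of all tested genes (squares) and of the 41 genes (circles) by class of merged exon length, from 1 (shortest) to 5 (longest), in 4 comparisons, with dashed lines and open circles after length correction. Only classes 3 to 5 hold any of the 41 genes (3, 11 and 27), and the solid line slopes most in R403Q-EMPA vs WT-EMPA.

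The number of the 41 genes above their own mean ran from 4 in R403Q-CD replicate 4 and R403Q-EMPA replicate 1 to 38 in WT-EMPA replicate 1. Other mice were split almost evenly, with 21 of 41 in WT-CD replicate 3. The median deviation of the 41 genes from their own means (log2 scale) was 0.02 ± 0.050 in WT-CD, -0.09 ± 0.107 in R403Q-CD, 0.12 ± 0.106 in WT-EMPA and 0.02 ± 0.103 in R403Q-EMPA (SD over mice). The groups with the lowest and highest means still overlapped, at -0.22 to 0.05 in R403Q-CD and 0.01 to 0.26 in WT-EMPA. The highest mouse was WT-EMPA replicate 1 at 0.26, with 38 of 41 genes above their mean, followed by R403Q-EMPA replicate 4 at 0.16, WT-EMPA replicate 2 at 0.15 and WT-EMPA replicate 5 at 0.15. The lowest were R403Q-CD replicate 2 at -0.22 and replicate 4 at -0.20. The length trend over all genes, the fitted deviation at 16000 bases minus that at 1000 bases, was -0.00 ± 0.086 in WT-CD, -0.11 ± 0.127 in R403Q-CD, 0.15 ± 0.149 in WT-EMPA and -0.06 ± 0.153 in R403Q-EMPA. The 4 mice with the highest enzyme medians were also the 4 with the highest length trend, and R403Q-CD replicate 4 had the lowest trend at -0.38. R403Q-CD replicate 2, with the lowest enzyme median, had a trend of -0.09, which ranked 16 of 21. Summed over the 41 genes, expression was 2465 ± 118 CPM in WT-CD, 2263 ± 194 in R403Q-CD, 2684 ± 197 in WT-EMPA and 2465 ± 192 in R403Q-EMPA.

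**Figure D5:**
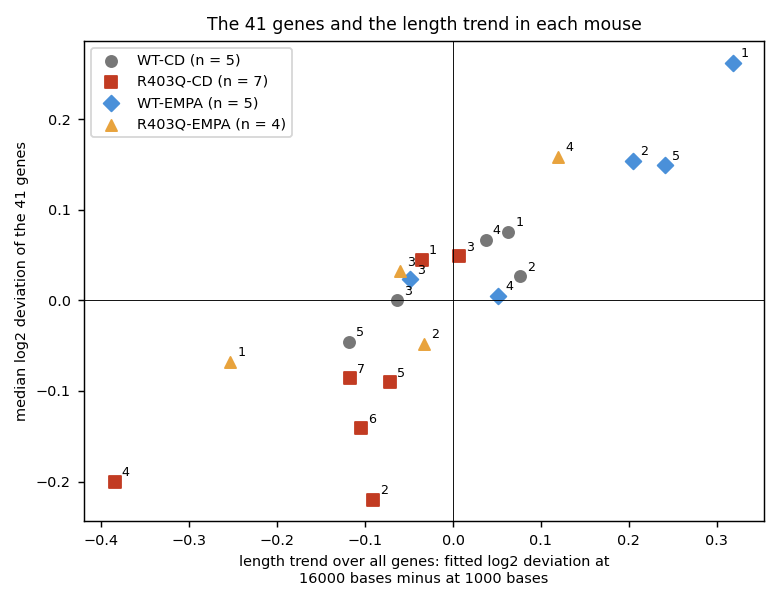
Median log2 deviation of the 41 genes (y axis) against the length trend over all genes (x axis) in each of 21 mice, with symbols by group and numbers by replicate. WT-EMPA replicates 1, 2 and 5 and R403Q-EMPA replicate 4 lie at the upper right, and R403Q-CD replicates 2 and 4 are the 2 lowest.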

How the data were processed

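LV RNA of 21 mice was sequenced from polyadenylated libraries. The authors aligned read pairs with STAR 2.6.0c to mm10 and deposited raw counts per Ensembl (build 100) gene from featureCounts (Subread 1.6.2), taking uniquely aligned, properly paired, same-strand, non-mitochondrial reads. They also deposited variance-stabilized log2 values from DESeq2 1.32.0, on which limma was run as an alternative. FastQC 0.11.7 is named in the submitters' processing notes. Columns that matched no sample numbered 0. Samples were grouped by genotype and diet labels. Replicates are mice numbered in accession order, and cages were taken from the label of that name.

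Counts were tested with edgeR 4.0.16 (R 4.3.3): TMM scaling, a minimum count of 10 in the expression filter, a quasi-likelihood fit over 4 groups, 5 contrasts and Benjamini-Hochberg adjustment with a threshold of 0.05. Alternatives were DESeq2 1.42.0, limma 3.58.1, no filter, library size alone, fits on 2 or 3 groups, cage as a block, offsets from a per-mouse lowess (span 0.3) on exon length, and leaving out each of 21 mice. CPM used TMM-scaled library sizes. Lengths came from GENCODE M21 on GRCm38, matched for 55190 of 55450 genes.

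The members, lists and tests were chosen with earlier results of these data known. Values by mouse (lowest, median and highest, or the range, in R403Q-CD), in the groups where a gene is described, were given for the 3 members with the smallest p in each contrast, the member with the highest TPM of each role group and the members with the shortest and longest exons, 17 in all. Other members were named after their values were seen. Genes of the pathway lists were named where an adjusted p passed, and Mef2a, Sap130 and Mef2d after their values were seen. The lists were COMPASS subunits, PRC2 subunits, other methyltransferases, demethylases, acetyltransferases and deacetylases, deacetylase corepressor complexes, acetyltransferase complex subunits, acetyl-lysine readers and MEF2 factors. Counts of 23491535 to 43539684 per mouse put 3 counts at 0.0689 to 0.128 CPM, below every value given here.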

Additional observations from a re-analysis of the deposited data

Results flagged for a closer look

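Of 72 groups of 4 to 10 values examined for a sample far from the others, 2 were marked, and chance alone marks about 1 in 20. In R403Q-CD hearts, Setd5 had a lowest value of 54.3 CPM, in replicate 4, below the other 6 mice at 61.9 to 65.1 CPM. In WT-CD hearts, Kmt2c had a lowest value of 81.9 CPM, in replicate 5, below the other 4 mice at 100 to 105 CPM. R403Q-CD replicate 4 had the lowest length trend of its group and WT-CD replicate 5 the lowest of WT-CD, and the part of this in the 2 values was not tested.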

How the results depend on the processing

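Of the 41 genes, 1 (Kdm4a) passed the adjusted threshold in R403Q-CD against WT-CD by DESeq2 and 2 (Kdm4a and Hdac5) with cage in the fit, against 0 by edgeR as reported, and leaving out each mouse gave 0 to 1 (1 without R403Q-CD replicate 3). The calls over all genes also differed, with 250 as reported, 984 by DESeq2, 1128 with cage, 28 on 2 groups, 98 on 3 groups and 31 to 1045 when each mouse was left out. The median length of the 41 genes was 6487 bases by the longest transcript against 9180 by merged exons. Medians of the 41 genes moved by over 1.5 times with length correction in WT-EMPA against WT-CD (0.12 to 0.05) and R403Q-EMPA against WT-EMPA (-0.09 to -0.03), with library size alone in R403Q-CD against WT-CD (-0.12 to -0.05) and R403Q-EMPA against WT-EMPA (-0.09 to -0.04), with cage in R403Q-EMPA against WT-EMPA (-0.09 to -0.05), and with single mice left out as given beside each comparison. The median of the interaction, 0.02 as reported, was 0.04 with length correction, 0.007 with library size alone and 0.05 with cage, and it changed sign when single mice were left out. In R403Q-CD against WT-CD the median of the H3K36, H3K9 and H3K27 genes changed sign after length correction. No paired analysis was possible because replicate numbers were given in accession order and pair no mice. Mice sharing a cage were compared in the fit with cage as a block, which could not be made for diet comparisons since 0 cages held both diets. On empagliflozin, 1 cage held only WT mice and gave no genotype comparison of its own in that fit. No other call of the 41 changed. The lowest mean counts were those of Hdac1 (135) and Ezh2 (189), and for Hdac1 depth and reads shared with its pseudogene cannot be told apart.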
